A study of Homo sapiens with 30 samples.

Results

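The comparison described here is the change in the response of A673 cells to the BET inhibitor BMS-986158 between 20 and 3 days of exposure. A673 is an Ewing sarcoma cell line, and its genotype label is EWS::FLI1. BET proteins read acetylated histones and help RNA polymerase II to elongate, and BMS-986158 blocks their bromodomains. EWS::FLI1 is the fusion transcription factor of this tumour. It is known to switch on a set of genes through repeats of the GGAA motif and to hold down genes of mesenchymal cells, among them genes of the extracellular matrix and of cell adhesion. The series title names a dependency on focal adhesion kinase, which is encoded by PTK2 and signals from integrins bound to matrix.

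The members are the 12 A673 libraries, out of 30 libraries in the series, chosen by their line, time and treatment labels, with 3 libraries in each of 4 groups. The first group is A673 kept in 5 nM BMS-986158 for 20 days, cells that the labels call persisters, and the second is its DMSO vehicle group labelled 20 days. The other two are A673 exposed for 72 hours (labelled 3 days) to 5 nM BMS-986158 and to DMSO. All 4 groups carry EWS::FLI1 and were grown in the same medium, and the results describe this 1 line. How long the 20-day DMSO cells received DMSO is not stated in the labels. The labels do not tell whether the replicates of a group came from different cultures. The p-values therefore rest on a spread between libraries that could be technical only.

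For each gene 3 quantities were computed from the deposited read counts. The response change is the log2 fold change of BMS-986158 over DMSO at 20 days minus the same fold change at 3 days. It is also the change of the treated arm (20-day minus 3-day BMS-986158 libraries) minus the change of the vehicle arm (20-day minus 3-day DMSO libraries), so each gene can be described by the arm that moved. Levels are given as CPM, the counts of a gene scaled to library size, and log2 values are given with the standard error of the edgeR fit. A gene was called at an adjusted p under 0.05.

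Libraries held 16479670 to 48949739 counts, and 15275 of 33538 genes passed the filter on low counts. A pair of libraries stood nearer to another group than to their own. Over all genes, the third 3-day DMSO library differed from the mean of the 20-day DMSO libraries with an SD of 0.391 on the log2 scale, and from the other 3-day DMSO libraries with an SD of 0.663. The third 20-day BMS-986158 library differed from the mean of the 3-day BMS-986158 libraries with an SD of 0.59, and from the other 20-day BMS-986158 libraries with an SD of 0.728. Mitochondrially encoded genes took 5.31% and 5.53% of counts in the first and second 3-day DMSO libraries and 2.00% in the third. In the 20-day BMS-986158 group they took 2.19%, 2.03% and 3.58%. Results that rest on these libraries are given with and without them.

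The Ewing sarcoma markers CD99, PRKCB, NKX2-2 and NR0B1 were present in every BMS-986158 library, NKX2-2 and NR0B1 at lower levels at 20 than at 3 days. DMSO levels of CD99 and PRKCB are not given here. The surface protein gene CD99 stood at 397, 441 and 341 CPM in 20-day BMS-986158 libraries and at 440, 449 and 435 CPM in 3-day BMS-986158 libraries. PRKCB, a protein kinase C gene switched on by the fusion, stood at 237, 216 and 263 CPM in 20-day BMS-986158 libraries and at 368, 351 and 360 CPM in 3-day BMS-986158 libraries. NKX2-2 had 8.72, 11.1 and 25.6 CPM in 20-day and 52.2, 48.2 and 50.5 CPM in 3-day BMS-986158 libraries. NR0B1 had 51.8, 43.1 and 120 CPM in 20-day and 221, 223 and 214 CPM in 3-day BMS-986158 libraries. Levels of STEAP1, LIPI and CCK, also chosen as markers, are not given here. The 15 leukocyte markers summed to 6.62 to 9.05 CPM in 20-day BMS-986158 libraries, 17.8 to 20.9 CPM in 20-day DMSO libraries, 9.64 to 11.1 CPM in 3-day BMS-986158 libraries and 20.2 to 39 CPM in 3-day DMSO libraries. CD79A and CD68 made up most of these sums, reaching 24.5 and 11.4 CPM. PTPRC, the pan-leukocyte gene, did not exceed 0.268 CPM, and CD3D, CD3E and MS4A1 had 0 counts in all 12 libraries.

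The response to BMS-986158 changed for 591 of the 15275 genes (3.87%) between 20 and 3 days. It was higher at 20 days for 377 genes (2.47%) and lower for 214 (1.4%), by at least 2-fold for 257 and 105 of them. NT5E, TNXB and LOX were among the highest, and NOS1, SLC38A5 and VGF among the lowest. The median response change over all genes was 0.02. At an unadjusted p under 0.05 there were 3021 genes.

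With all 12 libraries it was mainly the treated arm that was called to move. Without the third 3-day DMSO library both arms had similar numbers of calls, as given below. Between 20-day and 3-day BMS-986158 libraries 1440 genes rose (9.43%) and 1123 fell (7.35%). Between 20-day and 3-day DMSO libraries edgeR called 0 genes in either direction. The smallest adjusted p in that arm was 0.119, 3110 genes had an unadjusted p under 0.05, and DESeq2 called 239 higher and 380 lower. Of the 591 genes, 507 (85.8%) were called in the treated arm alone and 84 (14.2%) in neither arm, where only the difference between the arms passed. By size, the treated arm made up more than 66.7% of the summed absolute change for 402 genes and less than 33.3% for 21 genes, with 168 genes between. The medians of the 377 higher genes were 0.97 for the treated arm and -0.25 for the vehicle arm. For the 214 lower genes they were -0.80 and 0.15. Since the response change is computed from both arms, these classes are a description.

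**Figure D1:**
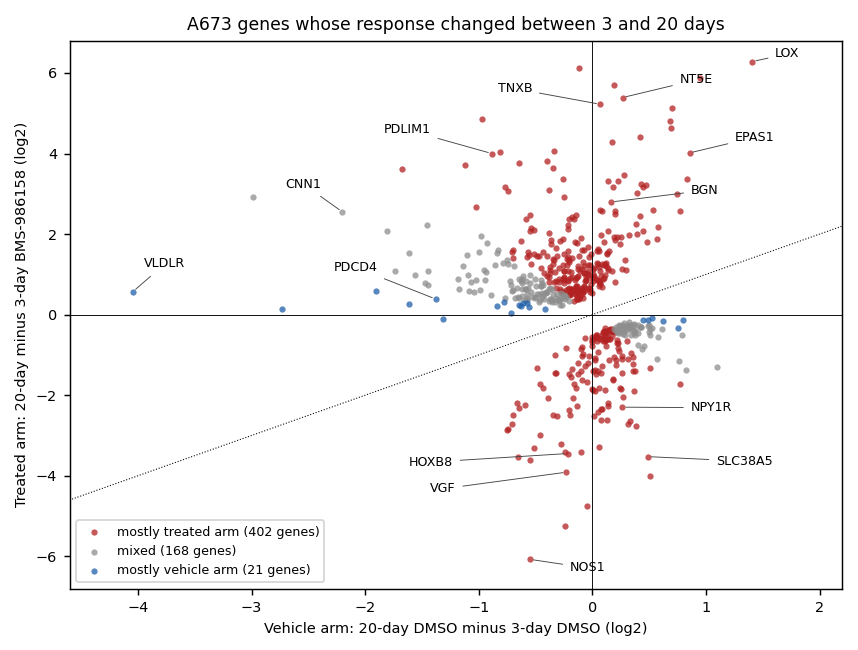
Each point is 1 of the 591 genes whose response changed, with the log2 change of the vehicle arm on the horizontal axis and that of the treated arm on the vertical axis, and the dotted line marks equal changes. The 402 genes in red spread along the vertical axis, whereas the 21 genes in blue lie near the horizontal zero line and VLDLR lies farthest to the left.

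BMS-986158 against DMSO was called for 38% of all genes at 20 days and 30.3% at 3 days. Set against the response at each time, 273 of the 591 genes were called under BMS-986158 at 20 days only, 203 with a higher and 70 with a lower response. Another 137 genes were called at both times with the same sign and a larger fold at 20 days, 57 higher and 80 lower. At 3 days only, 108 genes were called, 61 had opposite signs at the 2 times, and 12 had the same sign with a smaller fold at 20 days.

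The third 20-day BMS-986158 library lay between the other libraries of its group and the 3-day BMS-986158 libraries for 286 of the 377 higher genes (75.9%) and for 134 of the 214 lower genes (62.6%). It was the lowest library of its group for 78% of the higher genes, against 41.7% of all genes, and the highest for 63.1% of the lower genes, against 42.7% of all genes. Without it, 1408 genes were higher and 1019 lower (8.89% and 6.43% of the genes then tested), and 2131 of them were called in the treated arm alone. Without the third 3-day DMSO library, 795 genes were higher and 954 lower (5.1% and 6.11%). In that fit 2084 genes rose and 1538 fell in the vehicle arm, and 1995 rose and 1679 fell in the treated arm. Of its 1749 genes, 655 were called in the treated arm alone, 781 in the vehicle arm alone, 173 in both arms in opposite directions and 55 in both arms in the same direction. Without both libraries 2106 genes were higher and 2553 lower. Of the 591 genes first called, 590 were called again without both libraries, all 591 kept their sign, and 32 were then called in the vehicle arm alone. Without the third 3-day DMSO library alone, 573 of the 591 were called again, 392 of them in the treated arm alone, 42 in the vehicle arm alone and 121 in both arms in opposite directions. The treated arm made up most of the change for 370 of these 573 and the vehicle arm for 31. Calls in the vehicle arm thus depended on that library.

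**Figure D2:**
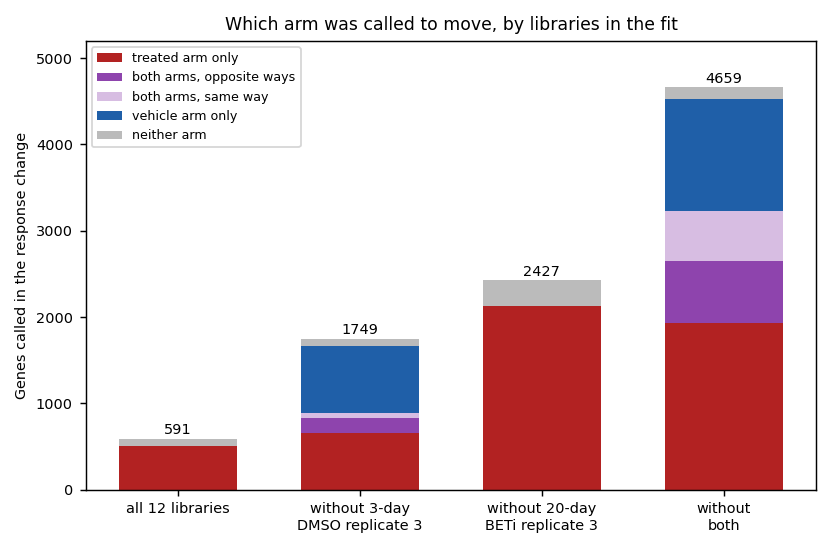
Bars give the number of genes with a called response change, stacked by the arm that was called, for fits with all 12 libraries, without the third 3-day DMSO library, without the third 20-day BMS-986158 library and without both. The vehicle arm alone (blue) holds 0 genes with all libraries and without the 20-day BMS-986158 library, 781 without the 3-day DMSO library and 1292 without both.

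Among the genes with the highest changes, NT5E encodes CD73, a surface enzyme that makes adenosine and a marker of mesenchymal stromal cells (ENSG00000135318, chromosome 6, 85449584 to 85495791, plus strand, GRCh38). It stood at 427, 474 and 80.6 CPM in 20-day BMS-986158 libraries and 13.4, 6.65 and 6.91 CPM in 20-day DMSO libraries. At 3 days it stood at 7.31, 8.04 and 8 CPM under BMS-986158 and 11.4, 7.89 and 3.71 CPM under DMSO. Every 20-day BMS-986158 library lay above the other 9 libraries, and the third was the lowest of them. Its response change was 5.12 ± 0.83 (adjusted p = 0.0107), with 5.39 in the treated arm and 0.27 in the vehicle arm.

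TNXB encodes tenascin-X, a matrix glycoprotein that organises collagen (ENSG00000168477, chromosome 6, 32041153 to 32115334, minus strand). Its levels were 392, 323 and 37 CPM in 20-day BMS-986158 libraries, 11.5, 14.6 and 14.5 CPM in 20-day DMSO libraries, 5.25, 6.36 and 8.14 CPM in 3-day BMS-986158 libraries and 11, 12.8 and 14.8 CPM in 3-day DMSO libraries. The 20-day BMS-986158 libraries were again above all others, with a response change of 5.16 ± 0.86 (adjusted p = 0.0122). TNXB has a near-identical partial copy, TNXA, and overlaps CYP21A2 and ATF6B, so its level is uncertain.

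LOX encodes lysyl oxidase, the enzyme that cross-links collagen and elastin. It stood at 323, 420 and 33.4 CPM in 20-day BMS-986158 libraries, 19.1, 5.61 and 5.4 CPM in 20-day DMSO libraries, 3.25, 3.12 and 3.51 CPM in 3-day BMS-986158 libraries and 4.35, 3.9 and 3.29 CPM in 3-day DMSO libraries. The groups under BMS-986158 did not overlap, and the response change was 4.88 ± 1.10 (adjusted p = 0.0341). EPAS1, which encodes the hypoxia-inducible factor HIF-2 alpha, had 692, 938 and 173 CPM in 20-day BMS-986158 libraries, against 35.1, 38.2 and 38.1 CPM in 3-day BMS-986158 libraries. In DMSO it had 50, 25.3 and 29.8 CPM at 20 days and 20.7, 27.3 and 10.4 CPM at 3 days, and its response change was 3.16 ± 0.72 (adjusted p = 0.0354).

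Other genes among the highest follow. PDLIM1, an adaptor of actin stress fibres, had a response change of 4.89 ± 0.80, and EHD2, which stabilises caveolae, one of 4.21 ± 0.60. The calcium-binding protein S100A4 had 4.13 ± 0.66, the adhesion molecule L1CAM 3.98 ± 0.67 and the hyaluronan receptor CD44 3.94 ± 0.97. CD44 stood at 331, 295 and 34.4 CPM in 20-day BMS-986158 libraries and at 8.68, 8.12 and 9.7 CPM in 3-day BMS-986158 libraries. PHLDA1 had 3.94, the receptor tyrosine kinase AXL 3.82, APOLD1 3.64, the urokinase gene PLAU 3.48, the RAB5 regulator RIN2 3.17 and the matrix-associated OLFML2A 3.16. Adjusted p ran from 0.00473 for OLFML2A to 0.0448 for CD44. AXL overlapped between the agents at 20 days, with 13.7, 9.25 and 1.56 CPM in BMS-986158 libraries and 3.66, 10.7 and 8.17 CPM in DMSO libraries. At 3 days it was below DMSO, with 0.628, 1.08 and 1.1 CPM in BMS-986158 libraries and 13.9, 17.7 and 6.15 CPM in DMSO libraries. Many of these calls depended on single libraries. Of the 105 named genes called, 32 stayed called in all 12 fits that left out 1 library, among them NT5E, TNXB, PDLIM1, EHD2, S100A4 and L1CAM. In 9 or more of these fits 49 were lost, among them LOX, EPAS1, CD44, PHLDA1, AXL, APOLD1 and PLAU. Among those named further below, COL1A1, COL1A2, COL4A1, ITGA1, ITGA3, ITGA11, MYOF and AJUBA were also lost in 9 or more. In bulk RNA, more cells with a gene on and more RNA per cell cannot be told apart. LOX overlaps SRFBP1, S100A4 overlaps S100A3, APOLD1 overlaps DDX47 and PLAU overlaps C10orf55, and the strand used in counting is not given, so reads of these neighbours may enter.

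**Figure D3:**
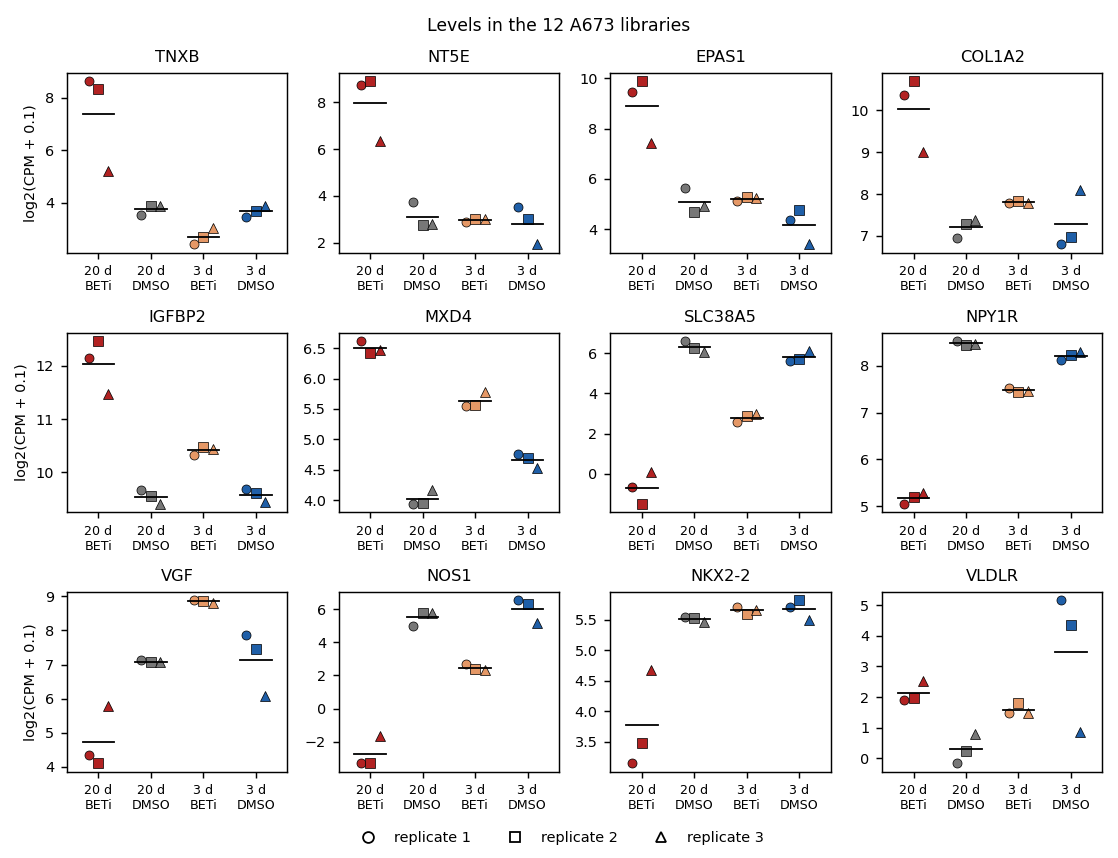
Levels of 12 genes, as log2(CPM + 0.1), in the 12 A673 libraries, with 20-day BMS-986158, 20-day DMSO, 3-day BMS-986158 and 3-day DMSO libraries from left to right, marker shape giving the replicate and bars the group means. TNXB, NT5E, EPAS1, COL1A2 and IGFBP2 are highest and SLC38A5, NPY1R, VGF and NOS1 lowest in 20-day BMS-986158 libraries, whereas VLDLR is set apart by the first and second 3-day DMSO libraries.

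Genes known to be repressed by EWS::FLI1 had calls in 1 direction. Of 25 tested, 11 had a higher and 0 a lower response at 20 days, against 2.47% and 1.4% of all genes. At unadjusted p under 0.05 there were 23 and 0, against 3021 of 15275 genes in either direction. DESeq2 called 15 higher and 0 lower, against 798 and 544 over all genes. The median response change of the 25 was 1.33, against 0.02 over all genes. In the treated arm 21 of the 25 rose, against 9.43% of all genes, with a median of 1.22, and in the vehicle arm the median was 0.002, with 0 called by edgeR, by DESeq2 or at an unadjusted p under 0.05. The 11 were LOX, CD44, PHLDA1, COL1A2, the actin-binding tropomyosin TPM1 (2.26 ± 0.53), the early response gene IER3 (2.02 ± 0.46), COL1A1, the growth factor signalling inhibitor SPRY1 (1.33 ± 0.32), the transcription factor FOXO1 (1.10 ± 0.21), COL5A1 and FN1. FOXO1 stood at 31.9, 30.4 and 29.7 CPM in 20-day BMS-986158 libraries, 8.79, 9.23 and 8.03 CPM in 20-day DMSO libraries, 17.4, 16.8 and 16.9 CPM in 3-day BMS-986158 libraries and 11.2, 11.7 and 8.06 CPM in 3-day DMSO libraries. It was thus highest in 20-day BMS-986158 cells, with the third library level with the others. Without the third 20-day BMS-986158 library 22 of 26 genes of this list were higher, against 8.89% of all genes. Without the third 3-day DMSO library 13 of 26 were, against 5.1%.

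Genes known to be activated by EWS::FLI1 had calls in both directions. Of 30 tested, 2 were higher and 2 lower, against 2.47% and 1.4% of all genes, with a median of -0.28. The higher ones, LOX and PHLDA1, also stand on the repressed list. The lower ones are transcription factors. NKX2-2, a homeobox gene used to diagnose this tumour, stood at 8.72, 11.1 and 25.6 CPM in 20-day BMS-986158 libraries, 46.4, 46.1 and 44.2 CPM in 20-day DMSO libraries, 52.2, 48.2 and 50.5 CPM in 3-day BMS-986158 libraries and 52, 56.3 and 45.2 CPM in 3-day DMSO libraries. It had not changed under BMS-986158 at 3 days (-0.02 ± 0.28, adjusted p = 0.956), and its response change of -1.56 ± 0.40 was close to the threshold (adjusted p = 0.04998). SOX2 had 47.2, 48.5 and 73.1 CPM in 20-day BMS-986158 libraries and 120, 113 and 113 CPM in 3-day BMS-986158 libraries, a response change of -1.01 ± 0.23 (adjusted p = 0.0327). NR0B1, another known fusion target, had 51.8, 43.1 and 120 CPM in 20-day BMS-986158 libraries and 221, 223 and 214 CPM in 3-day BMS-986158 libraries. It fell in the treated arm (-1.61 ± 0.38, adjusted p = 0.0147), but its DMSO levels were 156, 150 and 146 CPM at 20 days and 325, 309 and 127 CPM at 3 days. With all 12 libraries its response change of -0.86 ± 0.52 did not pass (adjusted p = 0.395). It was -0.59 (adjusted p = 0.427) without the third 3-day DMSO library and -1.46 (adjusted p = 0.0483) without the third 20-day BMS-986158 library. Without both it was -1.18 (adjusted p = 2.71e-07). Without the third 20-day BMS-986158 library 14 of 31 genes of this list were lower, against 6.43% of all genes. Without both distant libraries 18 of 30 were, against 16.3%.

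Of 23 fibrillar collagens and other matrix ligands tested, 11 were higher and 1 was lower, against 2.47% and 1.4% of all genes. In the treated arm 15 rose and 1 fell, against 9.43% and 7.35% of all genes. The list had a median response change of 1.32 and medians of 1.08 in the treated and 0.17 in the vehicle arm. BGN, the proteoglycan biglycan (ENSG00000182492, chromosome X, 153494939 to 153509554, plus strand), stood at 721, 964 and 415 CPM in 20-day BMS-986158 libraries and 82.4, 74 and 67.8 CPM in 20-day DMSO libraries. At 3 days it stood at 95.7, 105 and 101 CPM under BMS-986158 and 59.4, 58.4 and 82.1 CPM under DMSO. The 20-day BMS-986158 libraries lay far above the rest, and the response change of 2.63 ± 0.34 (adjusted p = 0.00305) passed without any 1 of the 12 libraries.

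COL1A2, a chain of type I collagen (ENSG00000164692, chromosome 7, 94394561 to 94431232, plus strand), had 1329, 1656 and 512 CPM in 20-day BMS-986158 libraries, 124, 156 and 167 CPM in 20-day DMSO libraries, 221, 228 and 221 CPM in 3-day BMS-986158 libraries and 111, 126 and 276 CPM in 3-day DMSO libraries, a response change of 2.58 ± 0.56. Its partner COL1A1 behaved otherwise with respect to DMSO. It had 631, 536 and 231 CPM in 20-day BMS-986158 libraries and 445, 505 and 503 CPM in 20-day DMSO libraries, which overlap, against 120, 141 and 127 CPM in 3-day BMS-986158 libraries and 436, 459 and 372 CPM in 3-day DMSO libraries. COL1A1 was therefore below DMSO at 3 days (-1.71 ± 0.27, adjusted p = 0.000667), and at 20 days its fold of -0.06 ± 0.26 did not pass (adjusted p = 0.887).

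The other higher matrix genes were the collagen VI chains COL6A2 (2.11 ± 0.40) and COL6A1 (1.56 ± 0.39), COL3A1 (1.81 ± 0.35), the microfibril gene FBN1 (1.63 ± 0.29), the matricellular SPARC (1.52 ± 0.37), the collagen V chains COL5A2 (1.32 ± 0.28) and COL5A1 (0.91 ± 0.20), and fibronectin, FN1 (0.89 ± 0.20). FN1 was among the most abundant of them, with 15978, 15527 and 10577 CPM in 20-day BMS-986158 libraries and 6848, 7318 and 7398 CPM in 3-day BMS-986158 libraries. The exception was elastin. ELN had 5.96, 3.06 and 10.6 CPM in 20-day BMS-986158 libraries and 41.9, 52 and 50.2 CPM in 3-day BMS-986158 libraries, with 152, 146 and 145 CPM in 20-day DMSO libraries and 297, 312 and 138 CPM in 3-day DMSO libraries. Its response change was -2.11 ± 0.49 (adjusted p = 0.0376).

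Integrins are receptors for matrix. Of 18 subunits tested, 5 were higher and 0 lower, against 2.47% and 1.4% of all genes, with a median of 0.91. At unadjusted p under 0.05 there were 12 and 0, against 3021 of 15275 genes in either direction. DESeq2 called 5 higher and 0 lower, against 798 and 544 over all genes. All 5 called by edgeR are alpha chains. ITGA11 (2.62 ± 0.64) and ITGA1 (1.72 ± 0.40) bind collagen, and ITGA3 (2.59 ± 0.63) binds laminin. ITGA4 (2.55 ± 0.40) binds fibronectin and VCAM1, and ITGAV (1.00 ± 0.26) binds vitronectin and fibronectin. Calls of ITGA11 and ITGA3 were lost in 10 of the 12 fits that left out 1 library and that of ITGA1 in 9. The call of ITGA4 was kept in all 12. ITGA4 had 18.6, 16.8 and 8.08 CPM in 20-day BMS-986158 libraries, 3.87, 4.03 and 4.23 CPM in 20-day DMSO libraries, 2.23, 2.52 and 3.45 CPM in 3-day BMS-986158 libraries and 4.77, 4.4 and 4.43 CPM in 3-day DMSO libraries. It was lowest at 3 days and highest at 20 days under BMS-986158, with flat DMSO levels. ITGA11 was the scarcest, at 2.13, 2.68 and 1.35 CPM in 20-day BMS-986158 libraries and at most 0.628 CPM in 3-day BMS-986158 libraries. Without the third 3-day DMSO library ITGA3 moved by 1.48 in the treated arm (adjusted p = 0.0252). Its vehicle arm was then at -1.36 and did not pass (adjusted p = 0.0594).

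At unadjusted p under 0.05, 10 of 18 basement membrane genes were higher and 0 lower, against 3021 of 15275 genes in either direction. DESeq2 called 8 higher and 0 lower, against 798 and 544 over all genes. By edgeR 5 were higher and 0 lower, against 2.47% and 1.4% of all genes, with a median of 0.76. COL4A1 (1.89 ± 0.39), COL4A2 (1.01 ± 0.22) and COL4A5 (1.33 ± 0.27) are chains of type IV collagen, COL18A1 (1.55 ± 0.26) is the source of endostatin, and LAMB2 (1.08 ± 0.17) is a laminin beta chain. Among 29 genes of focal adhesion kinase and its linkers, 2 were higher and 0 lower, against 2.47% and 1.4% of all genes. The higher ones were LIMS2 and PARVA, which join integrin-linked kinase in 1 complex. LIMS2 counts were low apart from 2 libraries, with 43.1, 48.4 and 4.31 CPM in 20-day BMS-986158 libraries and 0.685, 0.04 and 0.609 CPM in 3-day BMS-986158 libraries, and its response change was 6.24 ± 1.13 (adjusted p = 0.0156). PARVA had 194, 181 and 88.3 CPM in 20-day BMS-986158 libraries and 54.4, 51.6 and 50 CPM in 3-day BMS-986158 libraries (1.43 ± 0.33). PTK2 itself had 171, 154 and 172 CPM in 20-day BMS-986158 libraries, 163, 176 and 188 CPM in 20-day DMSO libraries, 191, 176 and 182 CPM in 3-day BMS-986158 libraries and 197, 200 and 195 CPM in 3-day DMSO libraries. Its response change was 0.02 ± 0.12 (adjusted p = 0.942).

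Genes of mesenchymal transition counted 7 of 21 higher and 0 lower, against 2.47% and 1.4% of all genes, with a median of 0.84. At unadjusted p under 0.05 there were 11 and 1, against 3021 of 15275 genes in either direction. DESeq2 called 7 higher and 1 lower, against 798 and 544 over all genes. Those called by edgeR were NT5E, S100A4, CD44, the scarce smooth muscle gene CNN1 (4.76 ± 1.08), the collagen cross-linking LOXL2 (2.98 ± 0.58), the TGF-beta co-receptor ENG (2.29 ± 0.55) and PDGFRB, the PDGF receptor beta (1.17 ± 0.23). CNN1 had 24 counts in the 20-day and 7 in the 3-day BMS-986158 group, and 19 and 75 in the DMSO groups. Without the third 3-day DMSO library it changed by 2.55 in the treated and -2.59 in the vehicle arm. Its call was lost in 10 of the 12 fits that left out 1 library. Targets of YAP, TAZ and TEAD, which respond to cell spreading and tension, had 3 of 25 called higher, against 2.47% of all genes, namely AXL, the membrane repair gene MYOF (3.02 ± 0.70) and AJUBA (1.24 ± 0.27), and 16 of the 25 rose in the treated arm, against 9.43% of all genes. Of 24 matrix proteases and inhibitors, PLAU and the metalloprotease inhibitor TIMP2 (1.68 ± 0.33) were higher and the protease ADAMTS1 (-1.24 ± 0.31) was lower, to be read beside the same shares of all genes.

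Markers of fibroblasts moved with these genes in part. Of 9 tested, 4 were higher and 0 lower, against 2.47% and 1.4% of all genes. The 4 were COL1A1, COL1A2, COL3A1 and PDGFRB, which were already counted in the matrix or mesenchymal lists above. The list of 12 summed to 1616 to 3715 CPM in 20-day BMS-986158 libraries, 1249 to 1341 CPM in 20-day DMSO libraries, 773 to 824 CPM in 3-day BMS-986158 libraries and 1021 to 1310 CPM in 3-day DMSO libraries. The remaining 8 genes summed to 193, 193 and 240 CPM in 20-day BMS-986158 libraries and 224, 231 and 223 CPM in 3-day BMS-986158 libraries. Of these 8, DCN, LUM and DPT had 0 counts in every 20-day BMS-986158 library. They were scarce in every group, with 19, 1 and 4 counts over all 12 libraries. PDGFRA, FAP and POSTN did not exceed 0.574 CPM in 20-day BMS-986158 libraries. THY1 stood at 38.7 to 98.5 CPM there and at 96.8 to 101 CPM in 3-day BMS-986158 libraries. FBLN1 stood at 130 to 153 CPM and at 123 to 133 CPM. Epithelial markers summed to 653.8, 551.6 and 124.1 CPM in 20-day BMS-986158 libraries and 109.8 to 114.9 CPM in 3-day BMS-986158 libraries. Most of that was KRT18, with 629, 534 and 114 CPM in 20-day BMS-986158 libraries, while EPCAM did not exceed 0.215 CPM there. KRT8, which pairs with KRT18, was the only called gene of the 6 epithelial markers tested (2.45 ± 0.61), against 2.47% of all genes called higher. The part of other cell types in these results was not tested.

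The IGF axis held 4 higher and 2 lower genes of 19 tested, against 2.47% and 1.4% of all genes, with a median of 0.27. IGF binding proteins bind IGF1 and IGF2 outside the cell and limit or prolong their action. IGFBP2 (ENSG00000115457, chromosome 2, 216632828 to 216664436, plus strand) stood at 4524, 5666 and 2853 CPM in 20-day BMS-986158 libraries, 813, 758 and 679 CPM in 20-day DMSO libraries, 1277, 1433 and 1392 CPM in 3-day BMS-986158 libraries and 821, 784 and 701 CPM in 3-day DMSO libraries. It was above DMSO at both times and further above it at 20 days, with a response change of 1.70 ± 0.26 (adjusted p = 0.00747). IGFBP7 was nearly silent outside the 20-day BMS-986158 libraries, where it had 23.9, 31.4 and 12.8 CPM, and did not exceed 0.61 CPM elsewhere (4.93 ± 1.20). IGFBP5 (1.23 ± 0.30) and the adaptor IRS1 (0.93 ± 0.17) were also higher. The RNA-binding protein gene IGF2BP1 (-1.05 ± 0.21) and STC2, a stanniocalcin that inhibits the IGFBP protease PAPP-A (-2.09 ± 0.39), were lower. IGF1 itself was strongly reduced at both times, with 3.83, 3.13 and 6.73 CPM in 20-day BMS-986158 libraries, 33.3, 25 and 28 CPM in 20-day DMSO libraries, 3.54, 3.36 and 3.8 CPM in 3-day BMS-986158 libraries and 23.5, 29.2 and 31.1 CPM in 3-day DMSO libraries. Its response change was 0.32 ± 0.33 (adjusted p = 0.647).

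Some cholesterol genes had a higher response at 20 days. Of 25 genes of cholesterol synthesis and uptake, 6 were higher and 0 lower, against 2.47% and 1.4% of all genes, with a median of 0.54. At unadjusted p under 0.05 there were 18 and 0, against 3021 of 15275 genes in either direction. DESeq2 called 11 higher and 0 lower, against 798 and 544 over all genes. At 3 days 15 of the 25 fell under BMS-986158, against 17.2% of all genes. The higher genes included the synthesis enzymes MSMO1 (0.86 ± 0.22), DHCR7 (0.82 ± 0.14), SC5D (0.67 ± 0.16) and FDFT1 (0.65 ± 0.16). DHCR7 rose in the treated arm (0.63 ± 0.10, adjusted p = 0.0016), and its vehicle arm was at -0.19 ± 0.10 (adjusted p = 0.293).

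Of 11 genes of the MYC network 2 were higher and 1 was lower, against 2.47% and 1.4% of all genes. MXD4 encodes a MAX partner that represses MYC sites (ENSG00000123933, chromosome 4, 2247432 to 2262294, minus strand). It had 98.3, 85.2 and 89.1 CPM in 20-day BMS-986158 libraries, 15.2, 15.4 and 17.9 CPM in 20-day DMSO libraries, 46.7, 47 and 54.7 CPM in 3-day BMS-986158 libraries and 27, 25.9 and 23.1 CPM in 3-day DMSO libraries. All 3 libraries of each group were close together and no groups overlapped, so that the response change of 1.53 ± 0.16 (adjusted p = 0.000471) came from a rise in the treated arm (0.88 ± 0.11) and a vehicle arm at -0.65 ± 0.11. MXI1, a related repressor, had 1.06 ± 0.26. MYCN had 1.65, 1.59 and 1.72 CPM in 20-day BMS-986158 libraries, 8.1, 6.13 and 6.76 CPM in 20-day DMSO libraries, 3.65, 4.28 and 4.42 CPM in 3-day BMS-986158 libraries and 4.41, 5.96 and 4.36 CPM in 3-day DMSO libraries (-1.83 ± 0.31, adjusted p = 0.0107). MYC was higher than in DMSO at both times, by 0.70 ± 0.12 at 20 days and 0.44 ± 0.12 at 3 days, and its response change of 0.26 ± 0.16 did not pass (adjusted p = 0.427).

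Other lists held a few called genes each, and their counts are to be read beside the 2.47% of all genes that were higher and the 1.4% that were lower. Of 26 axon guidance genes 4 were higher, SEMA3B (2.54), PLXNC1 (2.34), SEMA3A (1.34) and PLXND1 (1.03), and the netrin NTN4 (-1.29) was lower. Without the third 3-day DMSO library SEMA3B fell by -1.79 in the vehicle arm (adjusted p = 0.0135). Its treated arm was at 0.97 and did not pass (adjusted p = 0.0951). Of 22 neuronal genes 3 were higher, L1CAM, the kinesin KIF5C (1.68) and the synaptic vesicle sensor SYT1 (0.59). Of 22 endoplasmic reticulum genes 3 were higher, CRELD1 (0.91), the stress sensor ERN1 (0.71) and the ubiquitin ligase SYVN1 (0.50). For CRELD1 most of the change was in the vehicle arm (-0.61, against 0.30 in the treated arm). FZD5 (1.98) and FZD7 (1.13), receptors for WNT ligands, were higher among 31 genes of that pathway. FZD7 had 75.9, 68.5 and 78.5 CPM in 20-day BMS-986158 libraries, 27.7, 22.5 and 25.9 CPM in 20-day DMSO libraries, 29.7, 33.7 and 34.4 CPM in 3-day BMS-986158 libraries and 24, 25.5 and 23.4 CPM in 3-day DMSO libraries, so that the 20-day BMS-986158 libraries were highest and the 3-day BMS-986158 libraries also lay above all DMSO libraries. The vasodilator peptide gene ADM (2.52) and the kinase PDK1 (1.09) were higher among 25 genes of glycolysis and hypoxia. Without the third 3-day DMSO library PDK1 fell by -0.72 in the vehicle arm (adjusted p = 0.0267). Its treated arm was at 0.43 and did not pass (adjusted p = 0.116).

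The lower gene with the lowest adjusted p among those named was NPY1R, which encodes receptor Y1 of neuropeptide Y, a peptide that acts as a growth factor for Ewing sarcoma cells. NPY1R (ENSG00000164128, chromosome 4, 163323961 to 163344832, minus strand) had 33, 36.4 and 38.8 CPM in 20-day BMS-986158 libraries, 369, 348 and 351 CPM in 20-day DMSO libraries, 183, 174 and 175 CPM in 3-day BMS-986158 libraries and 280, 298 and 312 CPM in 3-day DMSO libraries. Groups did not overlap, and the third 20-day BMS-986158 library was level with the others. The response change was -2.56 ± 0.13 (adjusted p = 3.1e-07), with -2.30 ± 0.09 in the treated and 0.26 ± 0.09 in the vehicle arm. NPY5R, the gene of receptor Y5, lies beside it on the other strand (ENSG00000164129, 163343939 to 163351934) and had 0.585, 1.15 and 2.37 CPM in 20-day BMS-986158 libraries, 18.2, 27.4 and 24.1 CPM in 20-day DMSO libraries, 14.9, 13 and 13.2 CPM in 3-day BMS-986158 libraries and 36.7, 38.9 and 24.2 CPM in 3-day DMSO libraries (-2.79 ± 0.45, adjusted p = 0.00971). The annotated spans of NPY1R and NPY5R overlap, and with the strand setting unknown their reads cannot be fully told apart.

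Promoter sequences of these neighbours are shown because both fell together. They run from 250 bases before to 50 bases after the start that RefSeq gives for each gene, 5′ to 3′ on the gene's own strand, from RefSeq on GRCh38.p14: NPY1R at chr4:163332547-163332846 (minus strand) and NPY5R at chr4:163343642-163343941 (plus strand). The RefSeq window of NPY1R lies inside the longer GENCODE span given above, so the annotations place its start differently. Capitals mark CACGTG, the E-box bound by MYC, MXD and other basic helix-loop-helix proteins, which starts 60 bases before the NPY1R start and 50 bases before the NPY5R start.
NPY1R: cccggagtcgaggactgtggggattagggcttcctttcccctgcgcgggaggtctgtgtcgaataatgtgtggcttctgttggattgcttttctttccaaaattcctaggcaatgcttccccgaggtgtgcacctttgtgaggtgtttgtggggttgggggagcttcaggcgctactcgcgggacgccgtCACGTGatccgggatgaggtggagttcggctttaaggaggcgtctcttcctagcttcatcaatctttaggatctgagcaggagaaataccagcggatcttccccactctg
NPY5R: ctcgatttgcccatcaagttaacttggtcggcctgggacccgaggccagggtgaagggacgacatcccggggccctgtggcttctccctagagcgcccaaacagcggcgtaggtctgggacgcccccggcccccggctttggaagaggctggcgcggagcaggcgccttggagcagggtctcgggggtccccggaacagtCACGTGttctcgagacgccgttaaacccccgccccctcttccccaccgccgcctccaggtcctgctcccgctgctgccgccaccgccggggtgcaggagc
The motif CACGTG reads the same on both strands. It occurred in 22 of the 153 lower genes with a promoter in the table (14.4%), in 21 of the 304 higher genes (6.91%), in 9.97% of the tested genes and in 7.43% of all 27305 promoters. TGANTCA, the AP-1 motif, occurred in 3.92% of lower, 6.25% of higher and 4.51% of tested genes. TGATGNAA, a motif of ATF4 with C/EBP, occurred in 0 of 153 lower genes, 1.97% of higher and 1.75% of tested genes, and CCAAT in 34%, 32.6% and 36.5%. The run of 3 tandem copies of GGAA was found in 0 lower genes and 1 higher gene, against 0.0599% of tested genes. All motifs were searched on both strands, no test was made, and a match describes letters in the window only.

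Other lower genes differed in their response at 3 days. SLC38A5, a transporter of glutamine and serine (ENSG00000017483, chromosome X, 48458537 to 48470256, minus strand), had 0.532, 0.255 and 0.97 CPM in 20-day BMS-986158 libraries, 97.1, 76.5 and 66.8 CPM in 20-day DMSO libraries, 5.88, 7.16 and 7.67 CPM in 3-day BMS-986158 libraries and 49.1, 52.7 and 69.4 CPM in 3-day DMSO libraries. It was thus below DMSO at both times and much further below it at 20 days, a response change of -4.01 ± 0.37 (adjusted p = 0.000246). NOS1, the neuronal nitric oxide synthase, had 0, 0 and 0.215 CPM in 20-day BMS-986158 libraries, 31.4, 55.5 and 53.5 CPM in 20-day DMSO libraries, 6.45, 5.04 and 4.95 CPM in 3-day BMS-986158 libraries and 92.2, 78 and 35.4 CPM in 3-day DMSO libraries. The 20-day BMS-986158 group rests on 4 counts, against 483 in the 3-day BMS-986158 group, so the size of its change of -5.53 ± 0.89 is uncertain (adjusted p = 0.0107; -9.51 without the third 20-day BMS-986158 library). VGF, a secreted neuropeptide precursor induced by neurotrophins, turned from above to below DMSO. It had 20.2, 17 and 54.6 CPM in 20-day BMS-986158 libraries and 140, 134 and 134 CPM in 20-day DMSO libraries, against 471, 468 and 445 CPM in 3-day BMS-986158 libraries and 235, 175 and 67 CPM in 3-day DMSO libraries. Its response change was -3.68 ± 0.63 (adjusted p = 0.0128).

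Several lower genes encode transcription factors. FEV, an ETS family factor of serotonin neurons, had 0.372, 0.638 and 0.916 CPM in 20-day BMS-986158 libraries, 42.2, 45.8 and 37.1 CPM in 20-day DMSO libraries, 3.88, 4.96 and 3.92 CPM in 3-day BMS-986158 libraries and 35.9, 39.3 and 25.5 CPM in 3-day DMSO libraries (-3.03 ± 0.35, adjusted p = 0.00108). PAX7, a paired-box factor of muscle stem cells that is also known from Ewing sarcoma, had 6.22, 5.36 and 15.7 CPM in 20-day BMS-986158 libraries, 68.3, 59.5 and 60.6 CPM in 20-day DMSO libraries, 45.1, 50.5 and 50.8 CPM in 3-day BMS-986158 libraries and 60.8, 61.4 and 60 CPM in 3-day DMSO libraries. It did not pass at 3 days (-0.31 ± 0.27, adjusted p = 0.406), and its response change was -2.47 ± 0.40 (adjusted p = 0.0104). The nuclear receptor ESRRB (-3.31 ± 0.45) and the early growth response factors EGR3 (-2.28 ± 0.46) and EGR4 (-2.21 ± 0.38) were lower too. HOXB8 had 1.17, 1.08 and 1.51 CPM in 20-day BMS-986158 libraries and 14.4, 14.1 and 12.9 CPM in 3-day BMS-986158 libraries (-3.23 ± 0.31, adjusted p = 0.000246). HOXB7, whose annotated span contains HOXB8, had 6.28, 6.83 and 7.97 CPM in 20-day BMS-986158 libraries and 20.4, 19.3 and 18.6 CPM in 3-day BMS-986158 libraries (-1.49 ± 0.16). Among 24 HOX genes on the list HOXB7 was the 1 called lower and 0 were higher, against 1.4% and 2.47% of all genes. HOXB8 was not on that list.

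The rest of the 15 lowest were LOXHD1 (-2.88), the semaphorin SEMA6B (-2.74), the sialidase NEU4 (-2.54), the synaptic scaffold SHANK1 (-2.43), BTBD17 (-2.32) and the basement membrane protein FREM1 (-2.32). Adjusted p ran from 0.00118 for SEMA6B to 0.0389 for BTBD17. All 6 were below DMSO at both times with the larger fold at 20 days, and their treated arms fell by between 2.05 and 3.54 on the log2 scale. LOXHD1 was at -4.56 without the third 20-day BMS-986158 library, and its call was lost in 7 of the 12 fits that left out 1 library. Vehicle arms lay between -0.66 and 0.27, and 0 of these 6 genes were called there.

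The vehicle arm made up most of the change in 21 genes, 15 higher and 6 lower, and none of these was called in either arm alone. VLDLR, the very low density lipoprotein receptor (ENSG00000147852, chromosome 9, 2621834 to 2660053, plus strand), stood at 3.62, 3.83 and 5.6 CPM in 20-day BMS-986158 libraries, 0.789, 1.07 and 1.65 CPM in 20-day DMSO libraries, 2.68, 3.4 and 2.7 CPM in 3-day BMS-986158 libraries and 35.5, 20.4 and 1.72 CPM in 3-day DMSO libraries. The first and second 3-day DMSO libraries alone were high. Its response change was 4.62 ± 1.06 (adjusted p = 0.0365), with 0.57 in the treated and -4.04 in the vehicle arm, which passed without the third 3-day DMSO library (-4.54, adjusted p = 2.14e-05). PDCD4, a repressor of translation, had 74.8, 69.5 and 68.8 CPM in 20-day BMS-986158 libraries, 33.2, 39.2 and 44.2 CPM in 20-day DMSO libraries, 56, 53.9 and 53.1 CPM in 3-day BMS-986158 libraries and 144, 114 and 46 CPM in 3-day DMSO libraries, with the third 3-day DMSO library again near the 20-day DMSO ones (1.77 ± 0.41). MXI1 had the same layout, with 18.6, 21.2 and 21.7 CPM in 20-day DMSO libraries and 43.8, 42.2 and 24.2 CPM in 3-day DMSO libraries. Among the lower of the 21 were NOP56 (-0.62) and UTP14A (-0.94) of ribosome biogenesis and the RNA-processing genes SRSF9 (-0.57), DDX46 (-0.61) and SAFB (-0.78).

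ATF4 is a factor induced by amino acid shortage, and the median of its targets moved in the vehicle arm. Of 31 targets tested, 3 were higher, VLDLR, the cystine carrier SLC7A11 (1.61) and the glutamine carrier SLC38A2 (0.72), and STC2 was lower. The shares over all genes were 2.47% and 1.4%. Of these called genes, the treated arm made up most of the change for SLC7A11, SLC38A2 and STC2, and the vehicle arm for VLDLR alone. The median response change of the 31 targets was 1.21, with 0.05 in the treated arm and -0.97 in the vehicle arm. In the vehicle arm edgeR called 0 of the 31 (23 lower at unadjusted p under 0.05, and 13 lower by DESeq2). Over all 15275 genes, 3110 had such an unadjusted p in either direction, and DESeq2 called 380 lower. Without the third 3-day DMSO library 29 of 33 fell in the vehicle arm (median -1.29), against 1538 of 15603 genes. In that fit 21 were higher and 1 was lower in the response change, against 5.1% and 6.11% of all genes. ASNS, which makes asparagine, had 78, 78.5 and 77.9 CPM in 20-day BMS-986158 libraries, 81.3, 105 and 109 CPM in 20-day DMSO libraries, 91.1, 87.6 and 90.9 CPM in 3-day BMS-986158 libraries and 777, 570 and 82.9 CPM in 3-day DMSO libraries. Only the first and second 3-day DMSO libraries differed, so its response change was 2.07 ± 0.74 (adjusted p = 0.141) with all libraries and 2.52 (adjusted p = 7.57e-05) without the third. CHAC1, which degrades glutathione, had at most 0.829 CPM in 20-day BMS-986158 libraries, 2.04, 9.45 and 8.61 CPM in 20-day DMSO libraries, at most 1.68 CPM in 3-day BMS-986158 libraries and 76.6, 60.2 and 4.28 CPM in 3-day DMSO libraries. It was below DMSO at both times, and its response change did not pass with all libraries (2.17 ± 1.35, adjusted p = 0.414) or without the third 3-day DMSO library (2.64, adjusted p = 0.0678). ATF4 itself had 379, 452 and 466 CPM in 20-day DMSO libraries and 951, 802 and 382 CPM in 3-day DMSO libraries.

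Medians of growth genes had the other sign in the vehicle arm. Of 33 MYC targets and ribosome biogenesis genes, NOP56 was lower and 0 were higher, against 1.4% and 2.47% of all genes. At unadjusted p under 0.05, 14 were lower and 0 higher, against 3021 of 15275 genes in either direction. DESeq2 called 6 lower and 0 higher, against 544 and 798 over all genes. Medians of the 33 were -0.43 for the response change, -0.02 for the treated and 0.43 for the vehicle arm. Without the third 3-day DMSO library 22 of the 33 rose in the vehicle arm and 15 were lower in the response change. Over all 15603 genes of that fit, these numbers were 2084 and 954. Of 30 genes of DNA replication and G1/S, edgeR and DESeq2 called 0, with medians of -0.28, -0.02 and 0.28. At unadjusted p under 0.05, 7 were lower, again beside 3021 of 15275 genes in either direction. Without the third 3-day DMSO library 17 of the 30 rose in the vehicle arm and 10 were lower in the response change. Over all 15603 genes these numbers were again 2084 and 954. Heat shock genes had FKBP4 (-0.61) and DNAJB1 (-0.64) lower of 18, against 1.4% of all genes. Without that library 8 of 19 were lower and 1 was higher, against 6.11% and 5.1% of all genes.

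**Figure D4:**
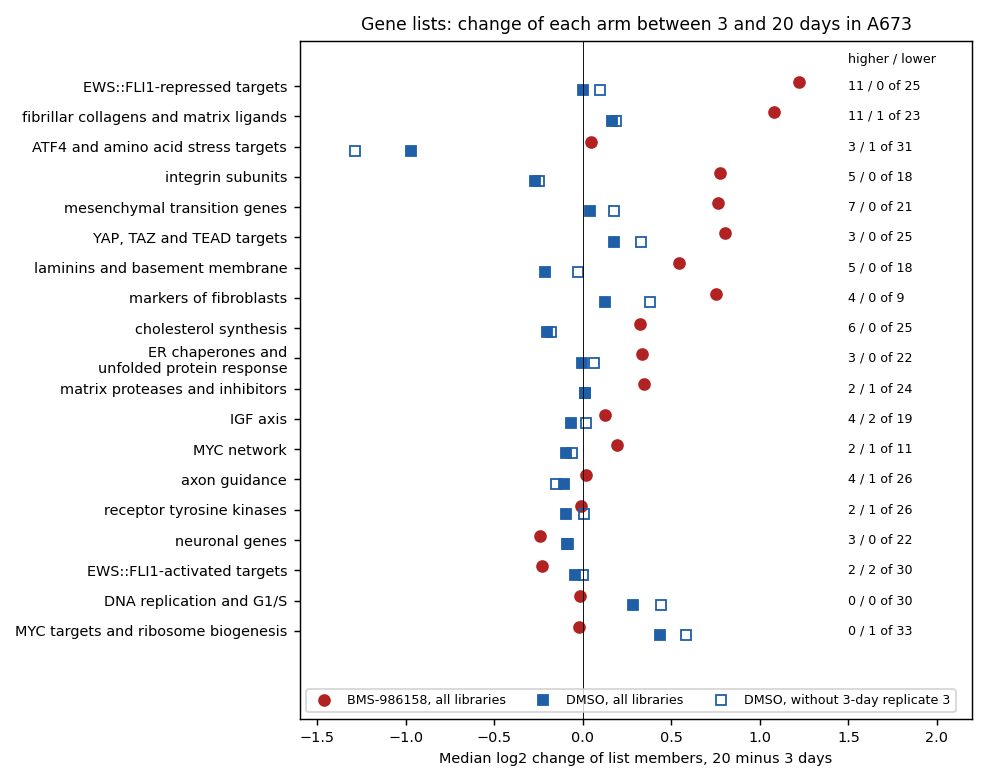
Median log2 change of 20 minus 3 days over the members of 19 gene lists in the BMS-986158 libraries (red), the DMSO libraries (filled blue) and the DMSO libraries without the third 3-day one (open blue), with the number of genes higher and lower in the response change of those tested on the right. In the EWS::FLI1-repressed and matrix lists the treated arm is displaced (1.22 and 1.08), and in the ATF4 list the vehicle arm (-0.97, or -1.29 without that library).

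Known marks of BET inhibition were not called in the response change. HEXIM1, an inhibitor of P-TEFb that rises when BET proteins are blocked, was above DMSO by 0.91 ± 0.14 at 20 days and 1.04 ± 0.14 at 3 days, and its response change was -0.13 ± 0.20 (adjusted p = 0.783). SERPINI1 was above DMSO by 2.58 ± 0.32 at 20 days and 2.38 ± 0.32 at 3 days. The BET gene BRD2 was above DMSO by 0.62 ± 0.12 at 20 days and 0.71 ± 0.12 at 3 days. LAMB3, a laminin chain, was below DMSO at both times, with 0.958, 0.957 and 0.97 CPM in 20-day BMS-986158 libraries and 32.9, 33.1 and 34 CPM in 20-day DMSO libraries, and with 2.06, 1.2 and 1.26 CPM in 3-day BMS-986158 libraries and 65.1, 58.6 and 26.7 CPM in 3-day DMSO libraries. PAPPA, the IGFBP protease, had a fold of -3.52 ± 0.20 at 20 days and -3.50 ± 0.20 at 3 days. With all 12 libraries, response changes of LAMB3 (-0.003 ± 0.26), PAPPA (-0.02 ± 0.26) and CCND1, the cyclin D1 gene (-0.22 ± 0.12), did not pass. Nor did that of the cell cycle inhibitor CDKN1A (0.77 ± 0.57, adjusted p = 0.504). Without both distant libraries CDKN1A (1.43, adjusted p = 6.17e-09) and CCND1 (-0.35, adjusted p = 0.00759) passed. In that fit LAMB3 (0.27, adjusted p = 0.56) and PAPPA (-0.40, adjusted p = 0.21) did not. CDKN1A had 301 and 285 CPM in 2 of the 20-day BMS-986158 libraries and 80.1 CPM in the third, the size of the spread that limits such genes. Of 8 markers of BET inhibition, edgeR called 0 in the response change, against 3.87% of all genes. At unadjusted p under 0.05, 2 were higher and 1 was lower, against 3021 of 15275 genes in either direction. DESeq2 called 1 higher and 1 lower, against 798 and 544 over all genes.

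CHLA10, an Ewing sarcoma line grown in another medium, was the only other line with both times, so line and medium cannot be told apart. In a fit of all 30 libraries, 560 genes had a higher and 497 a lower response change in CHLA10 (3.35% and 2.97% of 16713, 6.32% in all). The difference between the lines was called for 861 higher and 786 lower genes in A673 (5.15% and 4.7%, 9.85% in all). Of the 591 A673 genes it was called for 344, each with the sign of the A673 change. Since the difference is computed from the A673 change that picked these genes, that shared sign is a description only. In the 30-library fit 135 genes were called in both A673 and CHLA10, 23 of them with the same sign. For NT5E the CHLA10 change was 0.53 ± 0.75 and the difference was 4.58 ± 1.08 (adjusted p = 0.00987).

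Matrix ligands differed between the lines, with 10 of 27 higher in A673 than in CHLA10 and 0 lower, and medians of 1.44 in A673 and -0.001 in CHLA10. BGN had 2.62 in A673 and -1.17 ± 0.54 in CHLA10 (difference 3.79 ± 0.61, adjusted p = 0.000429), and COL1A2 had 2.57 and -0.56 ± 0.54 (difference 3.14 ± 0.77, adjusted p = 0.0126). Of 27 EWS::FLI1-repressed genes 6 were higher in A673. LOX had 4.86 in A673 and -0.59 ± 0.72 in CHLA10. NPY1R had -2.57 in A673 and -0.54 ± 0.31 in CHLA10 (difference -2.04 ± 0.44, adjusted p = 0.00449). Of 30 genes of G1/S the difference was called lower in A673 for 22, and 22 of the 30 were higher in CHLA10 (median 0.66). IGFBP2 was not called to differ between the lines (0.98 ± 0.36, adjusted p = 0.0794), nor were STC2 (-0.24 ± 0.59, adjusted p = 0.871), which was lower in CHLA10 too, and NKX2-2 (-1.56 ± 0.87, adjusted p = 0.282).

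**Figure D5:**
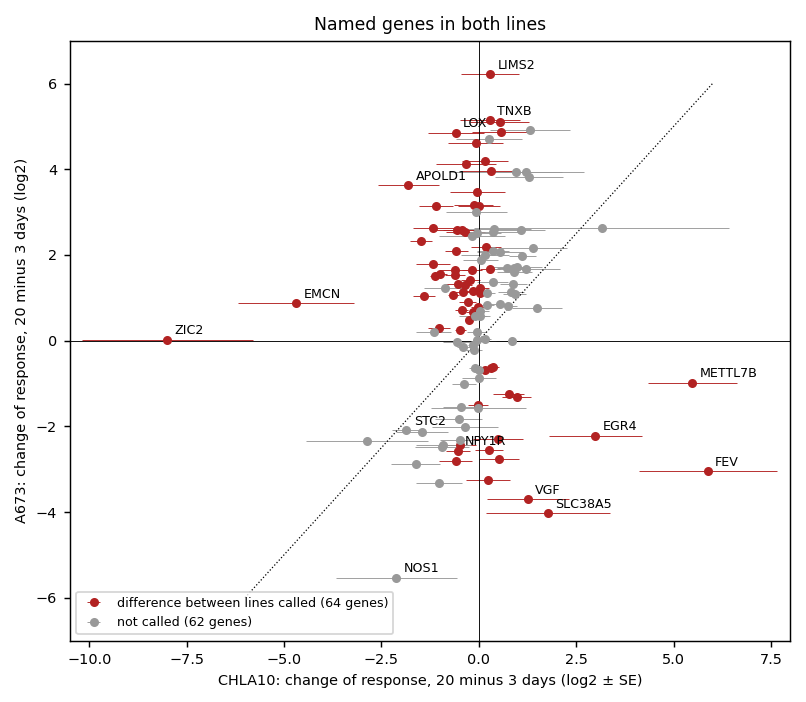
Response change of the named genes in CHLA10 (horizontal axis, log2, bars give the standard error) and in A673 (vertical axis, log2), both from the fit of all 30 libraries, with genes in red where the difference between the lines was called. Most red genes lie near zero on the CHLA10 axis, and STC2 lies near the dotted line of equal changes.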

How the data were processed

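RNA sequencing (poly(A), paired reads on 1 instrument, per the labels' protocols) gave a deposited table of whole-number read counts for 33538 genes, not normalized by the authors. FastQC, Trim Galore, STAR, DESeq2 and GRCh38/hg38 are named per the submitters' processing notes, whereas the tool used for counting, and its strand setting, is not given in the sources used here. Genes were filtered by group on low counts, scaled by TMM and tested with edgeR 4.0.16 (quasi-likelihood, robust; R 4.3.3) on the 12 A673 libraries with 1 mean per group and no replicate block. P-values were adjusted by Benjamini-Hochberg over the 15275 genes tested, or over 16713 in the 30-library fit for the difference between lines. CPM uses TMM-scaled library sizes. The fit was tested on simulated counts. Alternatives used DESeq2 1.42.0, limma 3.58.1, other filters and fits without libraries. No 2 libraries agreed within counting noise.

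Named genes were the 15 highest and 15 lowest response changes with a mean log2 CPM of at least 2, the 5 at each end of each arm class and of the difference between lines, up to 4 called members per list, and a fixed set that starts with PTK2. List members named beyond these were chosen after their values were seen, and the members and lists were chosen with earlier results of these data known. Coordinates are from GENCODE on GRCh38, and promoters are from RefSeq. Replicate numbers were not taken to pair libraries. Values of some genes are not reported here.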

Additional observations from a re-analysis of the deposited data

Results flagged for a closer look

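The response to BMS-986158 in A673 differed between 20 and 3 days, by a test of the difference itself, for 377 genes that were higher and 214 that were lower. The same contrast differed between A673 and CHLA10, again by a test of the difference, for 861 genes that were higher and 786 that were lower in A673.

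The named genes with the highest differences between the lines, on the log2 scale, were ZIC2 (8.02), EMCN (5.56), LOX (5.44), APOLD1 (5.43) and TNXB (4.86). Those with the lowest were FEV (-8.93), METTL7B (-6.46), SLC38A5 (-5.80), EGR4 (-5.21) and VGF (-4.96). In CHLA10 the fitted values of ZIC2, EMCN, METTL7B, EGR4, FEV and SLC38A5 rest on few counts. ZIC2, for example, had 0, 0 and 2 counts in 20-day BMS-986158 libraries, 3, 1 and 2 in 20-day DMSO libraries, 20, 10 and 0 in 3-day BMS-986158 libraries and 0 in all 3-day DMSO libraries. Such fitted sizes depend on the prior count and are no bound. LOX had 2109, 1409 and 1751 counts in 20-day BMS-986158 libraries of CHLA10 and 1245, 1124 and 1696 in its 3-day BMS-986158 libraries.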

How the results depend on the processing

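All 591 genes kept their direction in every setting that tested them, and counts of calls moved. DESeq2 gave 798 higher and 544 lower response changes, and 239 and 380 genes in the vehicle arm, with 986 called in the treated arm only, 137 in the vehicle arm only, 55 in both and 164 in neither (847 mostly treated, 378 mixed, 117 mostly vehicle). Limma-voom gave 211 higher, with 336 treated only, 254 mostly treated and 11 mostly vehicle. Voom with library weights gave 2981 and 2720, treated arm 4125 and 3993, vehicle arm 2997 and 3570, response at 3 days 4291 and 4643, at 20 days 4718 and 4719, between lines 2921 and 2921, and classes of 2644, 1253, 1630 and 174 (3060 mostly treated, 1376 mixed, 1265 mostly vehicle). Without a filter 6 and 2 genes were called in the vehicle arm (3 vehicle only, 1 both). The fit of all 30 libraries gave 724 and 490, vehicle arm 505 and 514, with 839 treated only, 184 vehicle only and 75 both (697 mostly treated, 367 mixed, 150 mostly vehicle). Without both distant libraries there were 2106 and 2553, treated arm 3437 and 3260, vehicle arm 3431 and 2695, 4136 higher at 3 days, 1566 and 1670 between lines, and classes of 1934, 1292, 1295 and 138 (2275, 1106 and 1278 by size). The replicate block gave 254 and 152, with 44 in neither arm, 111 mixed and 9 mostly vehicle. Pairing was not taken from the numbers, since 3 of 18 correlations were over 0.1. The causes were not tested.

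Leaving out 1 library moved the response change counts by over 1.5 times for each of the 12 libraries, and the 20-day response counts for 0 of them. Ranges were 61 to 1408 higher and 45 to 1019 lower response changes, 549 to 2461 and 363 to 2193 in the treated arm, 0 to 2084 and 0 to 1538 in the vehicle arm, 1313 to 2943 and 1861 to 3293 at 3 days, 2270 to 3368 and 2268 to 3485 at 20 days, and 566 to 1266 and 543 to 1312 between lines. Classes ran over 104 to 2131 treated only, 0 to 781 vehicle only, 0 to 228 both and 4 to 296 neither, and 87 to 1901 mostly treated, 21 to 474 mixed and 0 to 726 mostly vehicle. Uncalled genes changed sign over these fits: IGF1 -0.0863 to 0.511, ATF4 -0.0759 to 0.469, SERPINI1 -0.0538 to 0.386, PTK2 -0.0619 to 0.0665, LAMB3 -0.271 to 0.255, PAPPA -0.301 to 0.0964 and HEXIM1 -0.228 to 0.00229. They also did with library weights (PTK2 -0.00507, LAMB3 0.406, BRD2 0.126, HEXIM1 0.138), without a filter (PTK2 -0.00828), with a CPM filter (LAMB3 0.00795) and without both distant libraries (IGF1 -0.214, PTK2 -0.0463, LAMB3 0.272, BRD2 0.0155, HEXIM1 0.0476).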
